A study of Mus musculus with 4 samples.

Results

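Small RNA sequences of mouse liver and spleen were compared by whether they came from the stretches of 3' UTR that carry piRNA clusters in the adult testis. A sequence was counted as inside when at least 50% of its bases lay in a testis 3' UTR cluster on the strand of its own gene, and every other 3' UTR sequence was counted as outside. The list of testis clusters was held in full for 14 chromosomes (1 to 4 and 10 to 19), and only these were used. Of 7845 sequences in the 4 lists, 1108 were inside a testis cluster and 4203 were outside on the same chromosomes. The other sequences lay on other chromosomes, at Mir21 or in no GENCODE gene of the cluster regions. Mir21 was left out because its miRNA isoforms, 214, 213, 96 and 70 sequences in the 4 lists, lie in a 3' UTR region of Vmp1. None of them lay in a testis cluster.

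The libraries came from adult C57BL/6 mice, wild type (WT) or Miwi2-/-, with 1 library for each tissue and genotype and therefore no replicate. Miwi2-/- mice lack a functional Miwi2 (Piwil4) gene, and the number of animals per library was not given in the sources used here. Small RNAs were cut from a gel, at about 24 to 31 nt by the sample labels and about 22 to 35 nt by the study's methods, and the lists give distinct sequences without read counts. The 4 lists held 4273 (WT liver), 2634 (WT spleen), 560 (Miwi2-/- liver) and 378 (Miwi2-/- spleen) sequences, all from the somatic 3' UTR cluster regions that the authors defined in WT tissue. They cover part of each library, so its depth cannot be read from them. None held a sequence of Piwil4, so the genotype could not be checked. Of 16 hepatocyte marker genes, 9 had sequences in WT liver and 0 in WT spleen, while 12 leukocyte marker genes and 10 male germ cell marker genes had 0 in every list. The spleen label could therefore not be checked by its markers.

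piRNAs are small RNAs bound by PIWI proteins, which protect the germ line from transposons. In the adult testis many are cut from long single-stranded precursors, and the 3' UTRs of protein-coding mRNAs are one such source. Mature testis piRNAs are longer than miRNAs and mostly begin with U. MIWI2 is a nuclear PIWI protein best known from fetal male germ cells, where it directs the silencing of retrotransposons. The comparison asks whether somatic small RNAs from testis piRNA source regions differ from those of other 3' UTRs.

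The following inside sequences are shown because they came from genes with many inside sequences or were found in several lists. Coordinates are on mouse NCBIM37 (mm9), T stands for U, and capitals mark the 5' base and, where present, a 3' terminal A that does not match the genome.
Dnmt3a, chr12:3911926-3911945, plus strand: Actacaaggtcttcaggaac
Tnrc6b, chr15:80770478-80770501, plus strand: GacagaggaggagagagatcctgA
Elk4, chr1:133922264-133922286, plus strand: TcaagagtctgaactagcctcaA
Aff4, chr11:53231566-53231587, plus strand: TaaagctgatttgacaagtggA
Zhx3, chr2:160593983-160594012, minus strand: AaacttagaatttgtgtttttactaaagcA
Cds2, chr2:132132944-132132972, plus strand: CacttctgatagaaaaatggccttggatA
D19Wsu162e, chr19:46730016-46730045, plus strand: TggagacccaagtctgaaggctgggagagA
The sequences of Dnmt3a and Tnrc6b were found in all 4 lists, that of Elk4 in both WT lists, and that of Aff4 in both liver lists. The Elk4 sequence lay past the annotated 3' UTR end and the other 6 within annotated 3' UTRs, for instance 4178 nt from the start of that of Dnmt3a and 10570 nt from the start of that of Tnrc6b. The last 3 were each found in WT liver alone among the lists. Of the 7 sequences, only that of Dnmt3a lacked the unmatched 3' A.

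In WT liver 473 of 2874 sequences were inside testis clusters (16.5%, Wilson 95% interval 15.2 to 17.9). In WT spleen the number was 504 of 1845 (27.3%, interval 25.3 to 29.4). The Miwi2-/- lists had 69 of 347 inside in liver (19.9%, interval 16.02 to 24.4) and 62 of 245 in spleen (25.3%, interval 20.3 to 31.1). All intervals here cover counting error of distinct sequences only, and sequences of 1 gene often overlap. The Miwi2-/- share minus the WT share was 3.43 percentage points in liver (interval -0.679 to 8.13) and -2.01 in spleen (interval -7.46 to 4.12). Neither difference passed a two-sided Fisher's exact test, with p = 0.111 and p = 0.541 and adjusted p = 0.222 and 0.541 over the 2 tests. These tests compare libraries, not genotypes.

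**Figure D1:**
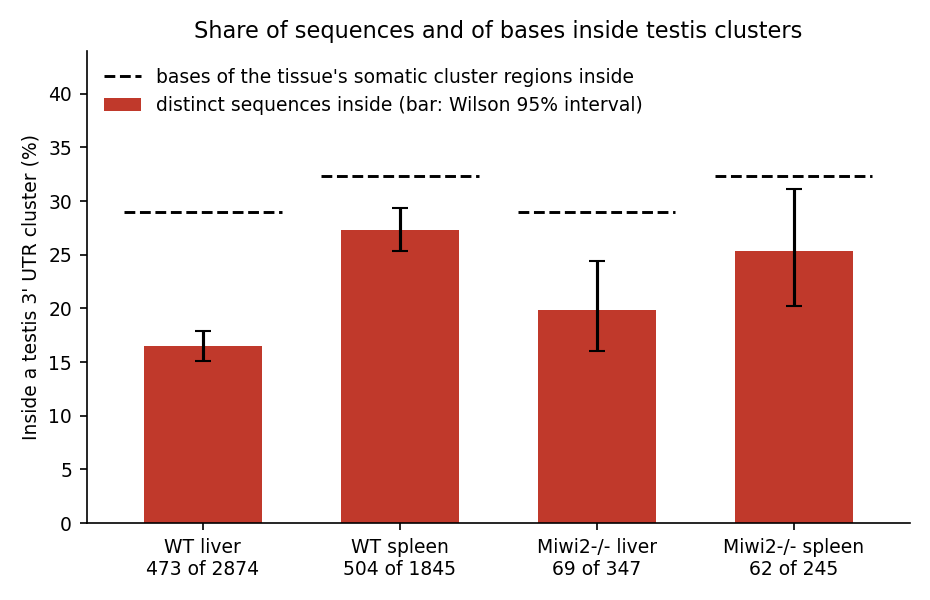
Bars give the percentage of distinct sequences inside a testis 3' UTR cluster in each list with Wilson 95% intervals, and dashed lines give the percentage of bases of that tissue's somatic cluster regions that lie inside testis clusters. The WT liver bar (16.5%) stands furthest below its line (28.9%), and the line of spleen is at 32.4%.

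Testis clusters covered more of the somatic regions than they held of the sequences. They covered 28.9% of the bases of the liver regions and 32.4% of those of the spleen regions, beside 19.4% of the annotated 3' UTR bases of all coding genes on these chromosomes. In WT liver there were 1.77 distinct sequences per kb inside and 3.66 per kb outside, and in WT spleen 2.08 and 2.65. This contrast lay between genes rather than within them. Regions without any testis cluster had 3.86 sequences per kb in liver and 2.78 in spleen, whereas the outside parts of regions with a testis cluster had 1.77 and 1.75. Regions with a testis cluster also had longer annotated 3' UTRs, with a median of 2918 nt against 1574 nt in liver and 2874 nt against 1823 nt in spleen. The authors kept regions that reached 3 small RNAs and lay above 7.5 RPKM, which is reads per kb of 3' UTR scaled to the aligned reads. The part of these limits and of 3' UTR length in the contrast was not tested.

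Within genes, the inside part was more often the denser one. Among genes with at least 100 nt on each side of the boundary, 39 of 54 in liver and 38 of 53 in spleen had more WT sequences per kb inside than outside. The median over these genes was 1.66 per kb inside and 1.17 outside in liver, and 2.09 and 0.769 in spleen. Pooled over all regions with a testis cluster, the density was 1.77 inside and 1.77 outside in liver, and 2.08 and 1.75 in spleen. These are values without a test, and the boundary of a testis cluster often fell near the annotated 3' UTR end. The authors extended regions past that end by a rule of its own. In these regions 53.7% of the outside sequences in WT liver and 70.3% in WT spleen lay past it. The part of the extension in the densities was not tested. Of the inside sequences 3.59% in WT liver and 6.55% in WT spleen lay past that end, beside 19.6% and 20.95% of the outside sequences. The testis clusters had been chosen by the authors for overlap with an annotated 3' UTR.

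The inside sequences came from many genes with few sequences each. In WT liver 88 of 323 genes had at least 1 inside sequence, with a median of 4 and a maximum of 33. In WT spleen 82 of 252 genes did, with a median of 5 and a maximum of 28. The 8 genes with the most sequences held 33.4% of the inside sequences in liver and 26.2% in spleen, and the corresponding 8 genes held 26.8% and 25.4% of the outside sequences. In each tissue 47 genes had all of their WT sequences inside. Testis clusters covered at least 90% of the region for 52 liver and 45 spleen genes. The part of that coverage in these counts was not tested. Dhx9 and Ivns1abp, named here after their values were seen, were the 2 liver genes with a testis cluster but no inside sequence, with 3 and 4 sequences outside.

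Counts per gene depend on how much of its region lay inside a testis cluster. In WT liver Zhx3, a zinc finger and homeobox transcription repressor, had the most inside sequences, 33 against 2 outside. Of its region 97.4% was inside, with 4.19 sequences per kb inside and 9.43 outside. Stard4, a sterol transport protein, had 28 inside and 3 outside. Of the Stard4 region 69.7% was inside, with 6.81 per kb inside and 1.68 outside. Cds2, a CDP-diacylglycerol synthase of phospholipid synthesis, had 17 and 2. D19Wsu162e (Wbp1l) and Tnrc6b, which encodes a scaffold of Argonaute silencing complexes, had 16 each and none outside. Elk4, an ETS transcription factor, had 15 and 12, and Aff4, a scaffold of the super elongation complex, had 12 and 2. None of the 12 hepatocyte markers on these chromosomes had an inside sequence. Of these, 7 had outside sequences in WT liver, 283 in all, including Scd1 with 137. Over all liver genes on these chromosomes 88 of 323 had an inside sequence, so 0 of 7 says little about hepatocyte markers.

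**Figure D2:**
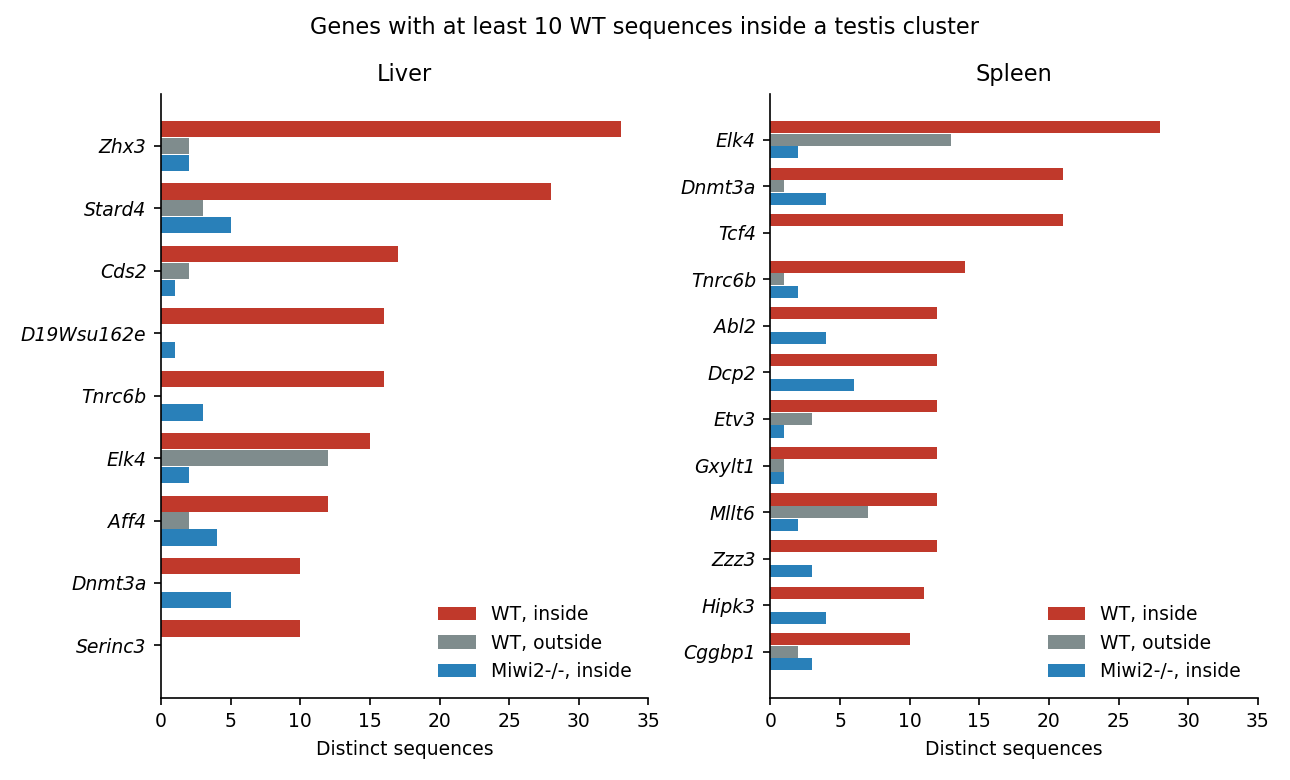
Bars give the number of distinct sequences per gene in genes with at least 10 WT inside sequences, 9 of 10 in liver (left) and 12 in spleen (right): WT inside, WT outside and Miwi2-/- inside. Zhx3 reaches 33 in liver and Elk4 reaches 28 in spleen, and Elk4 and Mllt6 have the most outside sequences among the spleen genes shown.

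In WT spleen Elk4 led with 28 inside and 13 outside. Dnmt3a, a de novo DNA methyltransferase, had 21 inside and 1 outside, Tcf4, an E protein transcription factor, had 21 and 0, and Tnrc6b had 14 and 1. Mllt6, a chromatin protein, had 12 and 7, and Ablim1, an actin-binding protein, had 5 and 5. The genes with the most outside sequences had no testis cluster. In liver they were Errfi1 (157), an inhibitor of EGF receptor signalling, Scd1 (137), a fatty acid desaturase, Trim25 (91), an E3 ubiquitin ligase, 4933403F05Rik (70) and Ppara (67), a nuclear receptor of fatty acid metabolism. In spleen they were Trim25 (90), the histone gene Hist1h1c (78), the splicing regulator Mbnl1 (49), Vmp1 (33, without the Mir21 sequences) and the histone gene Hist1h4h (30). Members of a gene family such as the histones share sequence, but each sequence kept here had a single best position.

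Few genes were shared between the tissues. Inside sequences were found in both WT lists for 15 genes, which are 17.0% of the liver genes and 18.3% of the spleen genes with such sequences. Among genes without inside sequences 23 were in both lists, 9.79% of those of liver and 13.5% of those of spleen. Identical sequences were rarer still, with 9 inside sequences in both WT lists, 1.90% of the liver and 1.79% of the spleen ones. Inside sequences in all 4 lists were found for 6 genes, Tnrc6b, Elk4, Dnmt3a, Fam53c, Lats1 and Rab14. Their counts were 16, 15, 10, 9, 4 and 4 in WT liver and 14, 28, 21, 5, 4 and 4 in WT spleen, in the same order. In Miwi2-/- liver they were 3, 2, 5, 6, 2 and 1, and in Miwi2-/- spleen 2, 2, 4, 3, 1 and 1. Lats1 is a kinase of the Hippo pathway and Rab14 a GTPase of endosomal traffic.

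Among genes with inside sequences, 43 of 88 in liver (48.9%) had at least 1 sequence of any kind in the Miwi2-/- list, beside 47.1% of all 323 liver genes. In spleen 37 of 82 (45.1%) did, beside 41.3% of all 252. The share of genes with inside sequences was thus close to the background in both tissues. Of the liver genes with inside sequences, 12 of 26 with 1 to 3 WT sequences, 17 of 41 with 4 to 6, 6 of 13 with 7 to 12 and 8 of 8 with 13 or more were seen in the Miwi2-/- list, beside 29.6%, 35.8%, 62.1% and 85.7% of all liver genes of these sizes. In spleen these were 3 of 13, 11 of 31, 16 of 30 and 7 of 8, beside 12.9%, 37.7%, 57.4% and 91.3% of all genes. Liver genes with inside sequences stood at 46.2% both at 1 to 3 and at 7 to 12 WT sequences, above and below these shares, with no test of the difference. The study's supplement reports far fewer reads for the Miwi2-/- than for the WT library of each tissue. Depth and genotype therefore cannot be told apart for a gene not seen again. The tissues were sequenced whole, so fewer cells of a type and less RNA per cell cannot be told apart either. Inside sequences themselves were found in the Miwi2-/- list for 41 of the 88 liver and 33 of the 82 spleen genes. The genes with the most were Fam53c (6), Dnmt3a and Stard4 (5 each) and Aff4 (4) in liver. In spleen Dcp2, the mRNA decapping enzyme, had 6, and Abl2, Dnmt3a, Hipk3 and Slc43a2 had 4 each. Tcf4, with 21 inside sequences in WT spleen (1.14% of 1845), had 0 of the 245 Miwi2-/- spleen sequences. At the 95% level a count of 0 allows up to 3 sequences, or 1.22% of that list, so a lower share was not detectable at this depth. Dcp2, Abl2, Hipk3 and Slc43a2 were named after their values were seen.

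None of 20 PIWI pathway genes had a sequence in any list, with 18 of them in the annotation and 13 on the chromosomes used. The lists hold only the authors' cluster regions and no background share is given here, so 0 says little about this set. A list of 37 names of small RNA and RNA decay genes, which include older and newer names of the same genes, had 24 on the chromosomes used. In WT liver 2 of these had inside sequences, Tnrc6b (16) and Eif2c1 (2), the gene of Argonaute 1. In WT spleen 4 did, Tnrc6b (14), Dcp2 (12), Eif2c3 (7), the gene of Argonaute 3, and Zcchc6 (1), a terminal uridylyltransferase with 17 sequences outside. They are among the 88 liver and 82 spleen genes with inside sequences. The share of all coding genes with inside sequences is not given here. Whether these counts are many or few therefore cannot be read from them.

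The length of the inside sequences was that of somatic 3' UTR small RNAs in general. In WT liver they had a median of 24 nt and a mean of 24.99 ± 3.30 nt (SD over 473 sequences), and outside sequences a median of 24 nt and a mean of 25.2 ± 3.37 nt (SD over 2401). In WT spleen both medians were 24 nt, with means of 24.2 ± 3.21 nt (SD over 504) inside and 24.3 ± 3.28 nt (SD over 1341) outside. The most frequent inside length was 23 nt in WT liver and 24 nt in the other 3 lists. Sequences of 27 nt or longer made up 30.2% inside and 33.6% outside in WT liver, 21.4% and 23.2% in WT spleen, 13.04% and 22.3% in Miwi2-/- liver, and 14.5% and 18.6% in Miwi2-/- spleen. The share was lower inside in all 4 lists, but no difference passed Fisher's exact test (lowest adjusted p = 0.399).

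**Figure D3:**
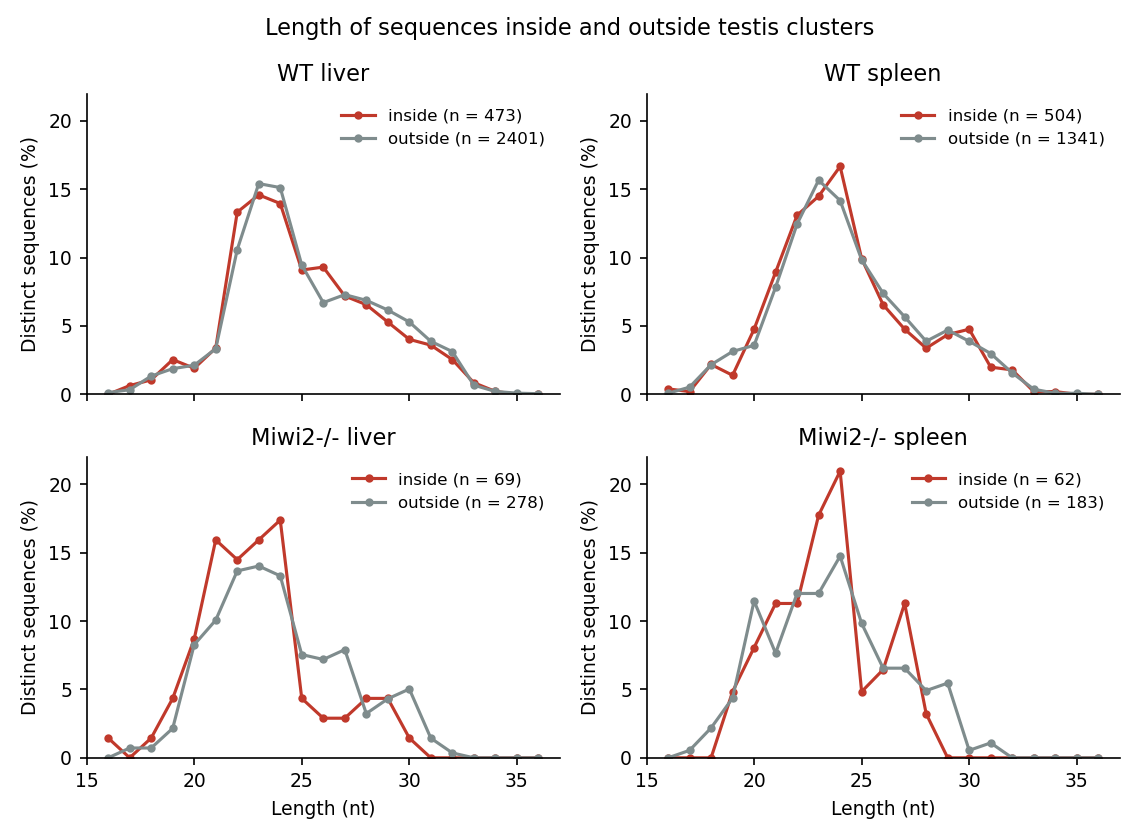
Lines give the percentage of distinct sequences at each length from 16 to 36 nt, inside (red) and outside (grey) testis clusters, 1 panel per list. Inside and outside lines follow each other closely in the WT lists, both with a median of 24 nt, and the Miwi2-/- inside lines rest on 69 and 62 sequences.

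In both WT lists the first base of the inside sequences was A more often than U. In WT liver the counts were close, 186 with A and 162 with U, and depended on single genes. Zhx3 had 20 with A and 4 with U, and Stard4 21 and 3, while Aff4 went the other way with 8.33% and 83.3%. A 5' A was found in 39.3% of them in WT liver and 44.05% in WT spleen, beside 25.9% and 26.1% of A among the bases of the same regions inside testis clusters. A 5' U was found in 34.2% and 30.8%, beside 30.5% and 30.2% of U among those bases. Outside testis clusters 37.1% and 41.0% began with A and 34.1% and 31.99% with U. In the Miwi2-/- lists inside sequences began with A in 43.5% (liver) and 30.6% (spleen) and with U in 23 of 69 and 31 of 62. Among sequences of 27 nt or longer, the length of testis piRNAs, 25.2% of 143 inside and 31.97% of 807 outside began with U in WT liver, and 24.1% of 108 and 32.8% of 311 in WT spleen. Neither difference passed Fisher's exact test, with adjusted p = 0.233 in each.

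An unmatched A at the 3' end was present in 44.6% of the inside and 48.3% of the outside sequences in WT liver, and in 44.2% and 48.5% in WT spleen. Matched or not, the last base was A in 86.1% inside and 86.1% outside in WT liver, and in 85.9% and 84.2% in WT spleen. Whether this A belonged to the RNA or arose in library preparation was not tested. The lengths above include it. Without the unmatched A the most frequent inside length was 22 nt in WT liver, 21 nt in Miwi2-/- liver and 23 nt in both spleen lists. Along the annotated 3' UTR, 50.9% of the inside sequences of WT liver and 48.9% of those of WT spleen lay in its upstream 50%, beside 47.8% and 52.7% of the outside ones. Within the testis cluster itself 55.2% of the liver sequences (interval 50.7 to 59.6) and 53.4% of the spleen sequences (interval 49.0 to 57.7) lay in the upstream 50%. Both parts of the cluster thus held inside sequences, and the liver interval lay above 50%. Of the inside sequences, 66.0% in liver and 72.2% in spleen overlapped no other inside sequence of the list, beside 50.3% and 59.2% of the outside ones. Outside sequences were also denser, at 3.66 per kb in liver and 2.65 in spleen beside 1.77 and 2.08 inside. The part of density in this overlap was not tested. The largest stack of overlapping inside sequences had 12 members, in Stard4 in WT liver.

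Over 6 properties in 4 lists, 24 tests in all, no difference between inside and outside sequences passed two-sided Fisher's exact tests with Benjamini-Hochberg adjustment (lowest adjusted p = 0.399). At an unadjusted p under 0.05, 1 of the 24 exact tests passed, the share in the upstream 50% of the 3' UTR in Miwi2-/- spleen, 44.3% inside and 60.9% outside (p = 0.0317). That difference of -16.6 points was -6.36 without the leading inside and outside gene and -7.58 with 1 sequence per stack. Without the 3 genes with the most inside sequences it was -18.3. The intervals bound what could have been seen. For 27 nt or longer the difference was -3.38 percentage points in WT liver (interval -7.78 to 1.29) and -1.76 in WT spleen (interval -5.85 to 2.61). For 5' U it was 0.180 (interval -4.38 to 4.95) and -1.24 (interval -5.87 to 3.59), and for 5' A 2.26 (interval -2.47 to 7.12) and 3.03 (interval -2.00 to 8.11). For the unmatched 3' A it was -3.66 (interval -8.51 to 1.26) and -4.30 (interval -9.34 to 0.814). In 18 tests of whether these differences themselves differed between tissues or between WT and Miwi2-/- lists, the lowest adjusted p was 0.604.

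**Figure D4:**
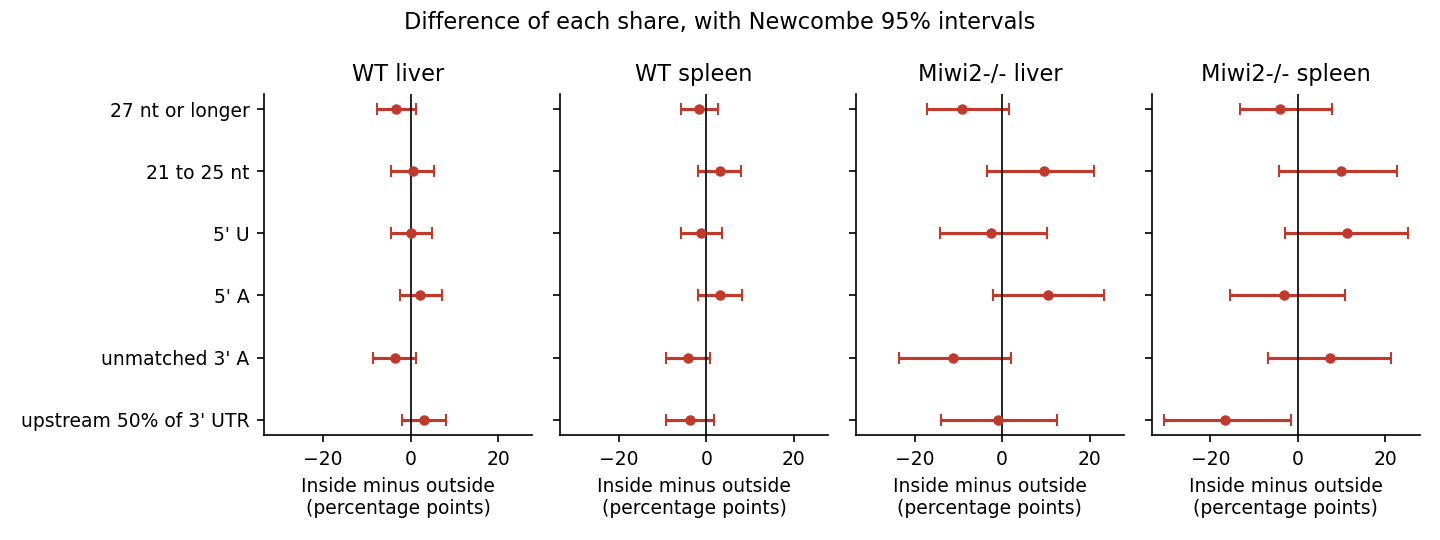
Points give the share of inside minus the share of outside sequences, in percentage points, for 6 properties in each list, with Newcombe 95% intervals. The intervals span 0 for all but the upstream 50% of the 3' UTR in Miwi2-/- spleen, whose unadjusted p was 0.0317.

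The result was different when outside sequences were taken only from genes that also have a testis cluster. These were 108 sequences of 43 genes in WT liver and 111 of 35 genes in WT spleen, of which 53.7% and 70.3% lay past the annotated 3' UTR end. A 5' A was found in 23.1% of them in WT liver, 16.2 percentage points less than inside (interval of the difference 6.39 to 24.4, adjusted p = 0.0217 over 24 Fisher's exact tests). In WT spleen it was found in 29.7%, a difference of 14.3 points (interval 4.30 to 23.2, adjusted exact p = 0.0339). In WT spleen 35.1% of these outside sequences had 27 nt or more, 13.7 points above the inside share (adjusted exact p = 0.0247), and 49.5% had 21 to 25 nt, 13.6 points below it (adjusted p = 0.0475). In WT liver the shares of these lengths outside were 26.9% and 62.0%, beside 30.2% and 54.3% inside, and did not pass the exact test (adjusted p = 0.671 and 0.653). In WT liver 9 of the 45 such sequences within the annotated 3' UTR lay in its upstream 50%, beside 50.9% of the inside ones (Fisher's exact test, adjusted p = 0.00159). Inside and outside are themselves set by where the clusters lie in these genes, so this test cannot decide on position and no conclusion is drawn from it.

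These differences were taken again with fewer sequences, in checks added after seeing the data. With annotated 3' UTR sequences alone, 50 outside sequences were left in WT liver and 33 in WT spleen. The difference in 5' A was then 13.7 points in liver (exact test, adjusted p = 0.461) and -7.35 points in spleen (adjusted p = 0.868). Those in length in spleen were -6.04 points for 27 nt or longer and 2.66 points for 21 to 25 nt (exact test, adjusted p = 0.849 and 1). The upstream 50% in liver (30.9) was defined for annotated 3' UTR sequences only, so this check could not change it. Without the 2 genes with the most such outside sequences in WT spleen, Zcchc6 (17) and Elk4 (13), the differences were -14.8 points for 27 nt or longer, 13.99 for 21 to 25 nt and 10.04 for 5' A. They were of like size or smaller but, over fewer sequences, not past the threshold of the exact test (adjusted p = 0.0508, 0.115 and 0.362). Leaving out the 2 leading genes in the same way in WT liver gave a 5' A difference of 18.4 points (exact test, adjusted p = 0.0151). With 1 sequence per stack of overlapping sequences, it was 16.7 points in liver (exact test, adjusted p = 0.0291) and 14.3 points in spleen (adjusted p = 0.0565). The strand of a sequence past the annotated end was taken from its region, and its part in the differences was not tested.

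**Figure D5:**
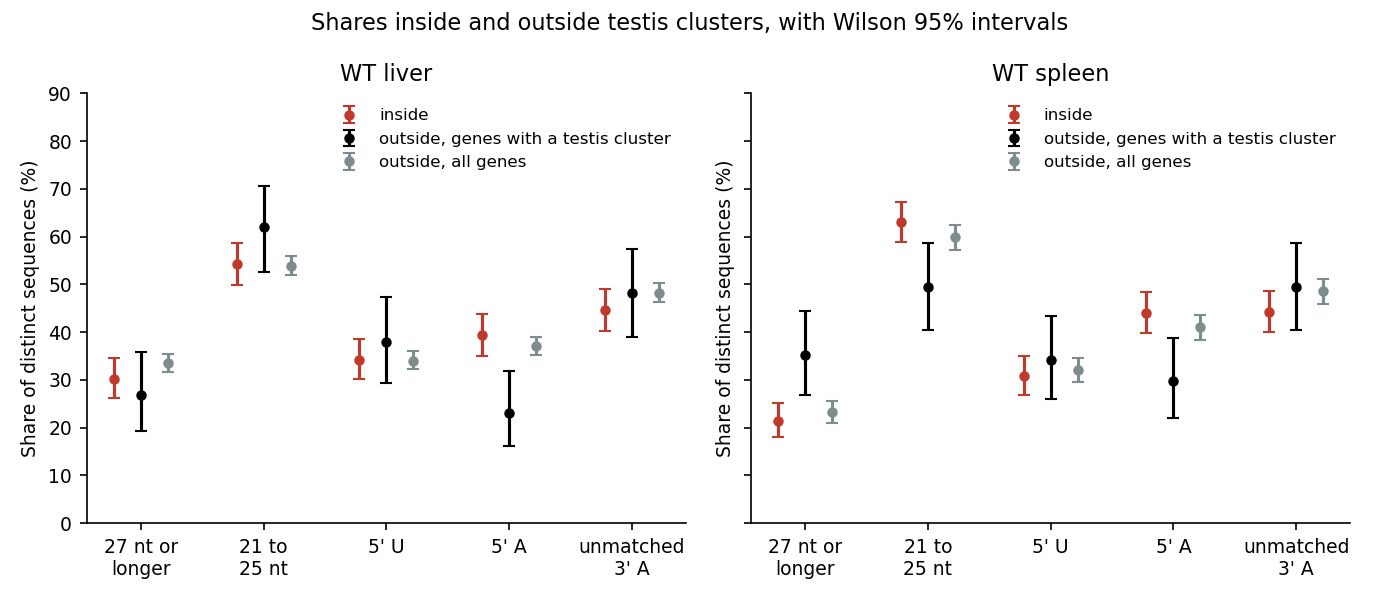
Points give the percentage of distinct sequences with each property in WT liver (left) and WT spleen (right), with Wilson 95% intervals: inside testis clusters, outside in genes with a testis cluster, and outside in all genes. The share with 5' A outside in genes with a testis cluster is 23.1% in liver and 29.7% in spleen, below the other 2 points of each panel.

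The leading genes differed widely among themselves. Among the 10 liver genes with at least 10 inside sequences the share with 5' A ran from 1 of 12 in Aff4 to 21 of 28 in Stard4, and that with 5' U from 3 of 28 in Stard4 to 10 of 12 in Aff4. In the 12 spleen genes 5' A ran from 3 of 10 in Cggbp1 to 8 of 12 in Gxylt1, and 5' U from 0 of 12 in Mllt6 to 5 of 11 in Hipk3. The share of 27 nt or longer ran from 1 of 10 in Serinc3 up to 47.6% in liver, with 47.1% in Cds2 and 11 of 33 in Zhx3. In spleen it ran from 0 of 12 in Dcp2 and Gxylt1 to 4 of 12 in Etv3. Each of these shares rests on 10 to 33 sequences, some of which overlap, and carries no test. Tnrc6b sequences were spread from 189 to 11170 nt from the start of its 3' UTR in WT liver and from 219 to 11260 nt in WT spleen. Those of Zhx3 reached from 278 to 5529 nt, and those of Dnmt3a in WT spleen from 1177 to 5711 nt. Cggbp1, Gxylt1, Hipk3, Serinc3 and Etv3 were named as the ends of these ranges.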

How the data were processed

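The 4 lists of distinct small RNA sequences, 1 per tissue and genotype, were used as deposited. To make them, the authors clipped adapters (25% mismatch allowed), merged duplicate reads, discarded reads that Bowtie matched to known non-coding RNAs within 3 mismatches, and listed sequences of somatic 3' UTR clusters on mm9, defined by at least 3 small RNAs, a density above 7.5 RPKM, and at least 2 times the density of the coding region. The submitters' processing notes name CASAVA 1.8, cutadapt, Bowtie and bedtools. The deposited cluster regions of WT liver and WT spleen gave positions, strands and RefSeq accessions, and the lists held sequences alone. These are neither counts nor normalized levels, and each sequence weighs 1 whatever its abundance.

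Sequences were placed on NCBIM37 with at most 1 mismatch, at a single best position, by a search written with numba 0.67.0 and numpy 2.4.6 (Python 3.11.15) and tested on simulated sequences. The lists give plus-strand letters throughout, and strands were taken from the authors' region they overlapped most (Miwi2-/- lists by the WT regions), and the gene from GENCODE M1 on that strand. Sense and antisense RNAs therefore cannot be separated. The positions of the testis clusters came from the study's supplementary list, of which 14 chromosomes were held in full. Shares were compared with two-sided Fisher's exact tests (scipy 1.17.1) on distinct sequences, interactions with logistic models (statsmodels 0.14.6), and p-values were adjusted by Benjamini-Hochberg within each family. Sequences of a gene overlap and are not independent, so p-values are too small, and with 1 library per group they compare libraries. Intervals are Wilson or, for differences, Newcombe 95% intervals. Matplotlib 3.10.9 was used for figures.

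The genes named are, in each WT list, the 8 with the most inside and the 5 with the most outside sequences, with all genes tied at the last place dropped, those with inside sequences in all 4 lists, and up to 5 with at least 5 of each kind. 1 gene that this rule selects is left out of the text and figures. Other names are given as chosen after their values were seen. Members, gene lists and tests were chosen with earlier results of these data known. The alternatives tried were other overlap rules, either strand, annotated 3' UTRs alone, exact matches, clusters of at least 1 kb, leaving out leading genes, Mir21 kept in, other outside sequences, other lengths and positions, and equal weights per gene. Gene assignment from the annotation alone with steps of 2 kb, 1 sequence per stack, leaving out 3 leading genes and the checks of the within-gene comparison were added after seeing the data.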

Additional observations from a re-analysis of the deposited data

Results flagged for a closer look

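In WT liver 17 outside sequences lay in a testis cluster of the other strand, 10 of them at Ccrn4l, 4 at C77080, 2 at Gpld1 and 1 at Nek9, while the other 3 lists had none. They were singled out because they lie in testis clusters but were not used as inside sequences. All sequences are listed in the direction of the plus strand, so on which strand these RNAs were made was not tested.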

How the results depend on the processing

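Of the alternatives, most left a difference on its side of the threshold. Differences below are inside minus outside in percentage points, and of those that changed sign only 5' A in WT spleen, among genes with a testis cluster, had passed the test. With annotated 3' UTRs alone the share inside was 19.2% in WT liver and 30.9% in WT spleen, and differences changed sign for 21 to 25 nt (-0.460) and 5' U (-1.06) in WT liver, 27 nt or longer in WT spleen (0.548). With exact matches the share inside was 30.9% in WT spleen. The signs then changed in WT liver for 21 to 25 nt (-2.60), 27 nt or longer (0.474), 5' A (-1.90) and 5' U (-2.18), in WT spleen for the upstream 50% (3.90), 21 to 25 nt (-1.71) and 27 nt or longer (3.49), for the upstream 50% in Miwi2-/- liver (0.742), and for 21 to 25 nt (-0.338) and 27 nt or longer (0.507) in Miwi2-/- spleen. With Mir21 kept in, whose sequences are all outside, the share inside was 24.5%, 15.6% and 19.7% for WT spleen and the Miwi2-/- liver and spleen lists. The differences then past the threshold were the upstream 50% in WT liver (8.04), 5' U (-9.01) and 5' A (7.63) in WT spleen, 5' A in Miwi2-/- liver (17.8) and the unmatched 3' A in Miwi2-/- spleen (18.4). Signs changed in WT liver for 21 to 25 nt (-1.19), 5' U (-4.30) and 3' A (0.135), in WT spleen for the upstream 50% (5.25), 27 nt or longer (1.35) and 3' A (2.03), in Miwi2-/- liver for the upstream 50% (12.7) and 3' A (1.28), and in Miwi2-/- spleen for the upstream 50% (3.88), 27 nt or longer (0.682), 5' A (3.77) and 5' U (-2.57). With outside sequences only of genes with a testis cluster, differences past the threshold were 5' A (16.2) and the upstream 50% (30.9) in WT liver and 27 nt or longer (-13.7), 21 to 25 nt (13.6) and 5' A (14.3) in WT spleen. The value for the upstream 50% is set by where the clusters lie in these genes. Signs changed in WT liver for 21 to 25 nt (-7.70), 27 nt or longer (3.38) and 5' U (-3.71), in WT spleen for the upstream 50% (7.001), in Miwi2-/- liver for the upstream 50% (45.5), and in Miwi2-/- spleen for the upstream 50% (4.26), 5' A (15.3) and 5' U (-3.85). In that comparison the 3 spleen differences were no longer past the threshold without the 2 genes with the most outside sequences (-14.8, 14.0 and 10.0), with annotated 3' UTRs alone (-6.04, 2.66 and -7.35) and in genes with both kinds of sequence (-12.0, 12.3 and 15.3), and for 1 sequence per stack neither were 27 nt or longer (-13.6) and 5' A (14.3). The liver difference in 5' A was lost with annotated 3' UTRs alone (13.7) and in genes with both kinds (14.8). Without the 3 genes with the most inside sequences the share inside was 14.1% in WT liver and 24.7% in WT spleen, and signs changed for 5' A in WT liver (-1.87) and for the upstream 50% (7.48) and 5' U (0.109) in Miwi2-/- liver. Without the leading inside and outside gene, signs changed for 5' A in WT liver (-0.498) and Miwi2-/- spleen (1.02) and the upstream 50% in Miwi2-/- liver (2.79). With 1 sequence per stack they changed for the upstream 50% in WT spleen (1.90) and Miwi2-/- liver (1.47) and 5' U in Miwi2-/- liver (0.431), and with testis clusters of at least 1 kb for 21 to 25 nt (-0.769) and 5' U (-0.558) in WT liver. Within 21 to 25 nt the difference in 5' A was -2.30 in WT liver, and within 27 nt or longer that in 5' U was -6.80 in WT liver and -4.90 in Miwi2-/- spleen. For the first of 3 equal parts of the 3' UTR the WT spleen difference was -7.29 and past the threshold, and with equal weight per gene the WT liver difference in the upstream 50% was 10.8. With at least 2 Miwi2-/- sequences required, 16 liver and 14 spleen genes with inside sequences were seen again. The cause of these changes was not tested. The other 368 values kept their direction and side of the threshold or moved within their interval. Some of these could not have changed. A limit of at least 3 WT sequences per gene repeated every value, because the authors had already set such a limit. The upstream 50% with annotated 3' UTRs alone used the same sequences as before. No paired analysis was possible because each tissue and genotype had 1 library. The Miwi2-/- lists hold 69 and 62 inside sequences, and their intervals are wide, for instance -17.3 to 1.64 for 27 nt or longer in liver.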
